A study of Mus musculus with 2 samples.

Results

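Long noncoding RNAs are transcripts that act as RNA rather than through a protein. The 10 members described here are Malat1, Neat1, Miat, Sox2ot, Rmst, Pantr1, Dlx6os1, Oip5os1, Mir124a-1hg and Mir9-3hg. They were chosen by name as RNAs of the neuronal lineage or of the nucleus, although earlier results of these data were known. They were found among 55536 annotated mouse genes, of which 10155 carry a long noncoding class. The deposited tables held 9 of the 10 names. Oip5os1 was listed there under 1700020I14Rik, which RefSeq gives as its synonym. Dlx6os1 had a second entry, a 146-base RNA of the class misc_RNA inside the same gene, with 0 counts in both libraries. At that length a floor of 3 counts corresponds to 2.79 TPM (a level scaled for transcript length and for the library's total) in replicate 1 and 2.81 TPM in replicate 2. The 10 members together have 74 annotated transcripts.

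RNA came from hippocampus of 14-day-old female mice of the strain B6CASTF1/J, a first-generation hybrid of C57BL/6J and CAST/EiJ. The single group held 2 libraries, named biological replicates 1 and 2, and each lists 3 females and 300 ng of input RNA. No animal in the group is described as treated or as carrying an engineered allele. The labels call the tissue a layer of hippocampus without saying which, and both libraries carry the same donor identifier. Total RNA was sequenced after reduction of ribosomal RNA, so transcripts without a poly(A) tail, such as long Neat1, could also be captured. With 1 group of 2 libraries there is no contrast between conditions and no p-value is given. The smallest exact two-sided p that such a pair could reach is 0.5. What the design allows is the level of each gene, the spread between the libraries and the difference between 2 quantifications of the same reads.

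The members act in different ways. Malat1, Neat1 and Miat stay in the nucleus: Malat1 gathers at speckles, where splicing factors are stored, Neat1 is the scaffold of paraspeckles, and Miat (also called Gomafu) forms its own nuclear foci in neurons. Sox2ot, Rmst, Pantr1 and Dlx6os1 lie beside or around genes for developmental transcription factors or work with such a factor. The last group is tied to microRNAs, the small RNAs that repress messages through a seed of a few bases. Mir124a-1hg and Mir9-3hg are precursors from which neural microRNAs are cut, and Oip5os1 (Cyrano) carries a site for miR-7.

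The sequences on which these roles rest are given first. Both long RNAs at the Malat1 and Neat1 locus are cut at their 3′ ends by RNase P, the enzyme that also trims transfer RNAs, and end in a stretch that folds back on U-rich tracts. The last 130 bases of long Neat1 (transcript Neat1-201, 20771 bases) were compared with the last 500 bases of Malat1-201 (6983 bases). Exact runs of at least 10 shared bases are in capitals below, 5′ to 3′, on the minus strand of chromosome 19 in mm10. The Neat1 stretch is chr19:5824708-5824817 and the Malat1 stretch is chr19:5795982-5796091.
Neat1-201 end: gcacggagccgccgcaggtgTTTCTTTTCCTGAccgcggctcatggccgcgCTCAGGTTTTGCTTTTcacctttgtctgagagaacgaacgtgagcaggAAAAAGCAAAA
Malat1-201 stretch: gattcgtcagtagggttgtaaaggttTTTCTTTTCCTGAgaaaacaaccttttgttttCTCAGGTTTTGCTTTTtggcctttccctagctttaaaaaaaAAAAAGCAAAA

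The pair shared 3 such runs, of 13, 16 and 11 bases, in the same order. Among 15671 transcripts of the 10155 long noncoding genes, 2 held all 3 runs on the transcript strand, from 2 genes. They are Neat1-201 and Malat1-201 themselves, from which the runs were taken, so both had to be found. No other transcript searched held all 3. In Neat1-201 the last run is the annotated end. Malat1-201 continues for 292 bases past it in the annotation, into the region that gives the small tRNA-like RNA released on cleavage, and ends after a poly(A) signal. The short Neat1 form (Neat1-202, 3004 bases) ends after such a signal as well. The signal AATAAA is in capitals in the last 60 bases of each (chr19:5842307-5842366 and chr19:5795690-5795749).
Neat1-202 end: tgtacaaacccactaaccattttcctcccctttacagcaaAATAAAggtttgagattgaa
Malat1-201 annotated end: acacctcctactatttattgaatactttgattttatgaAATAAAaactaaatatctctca

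AATAAA stood 14 bases before the end of Neat1-202 and 16 bases before that of Malat1-201, and was found 0 times in the last 40 bases of Neat1-201. On the transcript strand, 46.2% of the leading transcripts of 669 detected long noncoding genes held AATAAA in their last 40 bases.

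Miat is known for copies of TACTAAC, the sequence that the splicing factor SF1 reads at intron branch points. Miat-201 (8758 bases) held 6 copies on its own strand and 0 on the other strand, and 3 of them lay within one window of 60 bases. Both clusters are shown with the copies in capitals, from the minus strand of chromosome 5 at chr5:112216753-112216812 and chr5:112217310-112217459.
Miat-201 dense window: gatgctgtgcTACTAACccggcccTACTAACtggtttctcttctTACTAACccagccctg
Miat-201 upstream cluster: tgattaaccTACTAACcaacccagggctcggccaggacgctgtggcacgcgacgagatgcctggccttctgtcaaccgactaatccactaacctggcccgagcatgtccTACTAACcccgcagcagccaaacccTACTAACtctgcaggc

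One copy or more was present in 3.04% of all long noncoding transcripts. As many copies as in Miat-201 were held by 3 transcripts from 2 genes, Miat-201 itself among them. The density was 0.685 per kb in Miat-201 and 0.0263 per kb over all long noncoding transcripts.

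Oip5os1 carries a site that pairs with the seed of miR-7 and, past a short loop, with the 3′ part of the same microRNA. The mature miR-7 forms are shown with the seed (bases 2 to 8) in capitals, followed by the site in transcript 1700020I14Rik-202 at chr2:119602137-119602161 on the plus strand, with the paired bases in capitals.
miR-7a-5p: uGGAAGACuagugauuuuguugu
miR-7b-5p: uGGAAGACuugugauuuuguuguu
Oip5os1 site: ACAACAAAATCACcaatGTCTTCCA

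The miR-7 forms share 1 seed. The transcript held 2 matches to GTCTTCC, and 1 of them was preceded by a run of 13 bases complementary to the 3′ part of miR-7a-5p. A seed match was present in 10.7% of the 15671 long noncoding transcripts on the transcript strand and in 17.9% on the other strand. The seed match with the 13-base run before it was found in 1 transcript of 1 gene, this one. The length of the run was set from this transcript, so it had to be found, and no other transcript searched held it.

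The microRNAs encoded inside members are shown with their seeds in capitals, from RefSeq on GRCm38.p6. Mir9-3 lies in Mir9-3hg at chr7:79505264-79505353. Mir135a-2 and Mir1251 lie in Rmst, at chr10:92072086-92072185 and chr10:92137140-92137223.
miR-9-5p: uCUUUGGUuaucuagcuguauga
miR-9-3p: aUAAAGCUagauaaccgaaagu
miR-135a-5p: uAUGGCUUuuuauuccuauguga
miR-135a-2-3p: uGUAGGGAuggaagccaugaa
miR-1251-5p: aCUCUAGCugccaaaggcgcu
miR-1251-3p: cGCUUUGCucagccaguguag

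No seed was shared among those shown for the host genes. Mir124a-1 and Mir3078 lie in Mir124a-1hg. The gene tables listed Mir9-3, Mir135a-2, Mir1251, Mir124a-1 and Mir3078 with 0 counts in both libraries, so only the host RNAs are measured here, not the mature microRNAs.

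All 10 members were detected, with both libraries at 1 TPM or more. The same held for 26.6% of all annotated genes and for 6.59% of the long noncoding genes. The members' median level was 51.7 ± 6.19 TPM (mean TPM, SD of the libraries' own medians, n = 2). Detected long noncoding genes had a median of 2.67 ± 0.184 TPM (669 genes) and detected protein-coding genes 14.9 ± 0.898 TPM (12905 genes). The members were known brain RNAs when chosen, so their place above the median describes the choice.

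Total counts were 33465393 in replicate 1 and 32879872 in replicate 2. The members took 380669 and 316638 of them, 1.14% and 0.967% of the counts on annotated genes. Markers of hippocampal excitatory neurons were present, 8 of 8 at 1 TPM or more in both libraries, led by Camk2a and Slc17a7. Markers of the choroid plexus, the secretory tissue beside the hippocampus, separated the libraries. At least 1.5-fold lower in replicate 2 were 8 of 8, where 4.18% of all 14715 tested genes were that far apart in either direction. The markers' summed level was 1437 TPM in replicate 1 and 9.86 TPM in replicate 2. Ttr, the defining transcript of that tissue, was at 1375 and 5.62 TPM, and no choroid plexus marker was at 0. Astrocyte markers lay the other way: 5 of 6 were higher in replicate 2, where 47.5% of all tested genes were lower. With total-count, DESeq2 or spike-in scaling 4 of 6 were higher. Astrocyte sums were 1706 and 2003 TPM. The part of choroid plexus and astrocyte content in the differences between the libraries given below was not tested. In tissue RNA, fewer cells of a type and less RNA per cell cannot be told apart.

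**Figure D1:**
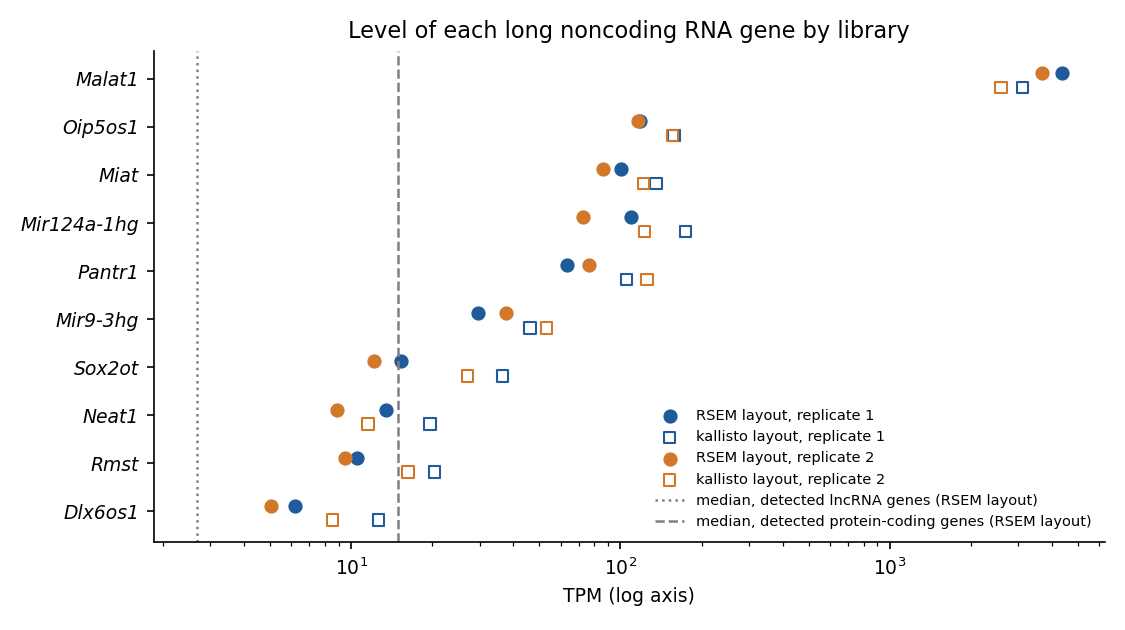
Level of each gene in TPM on a log axis, with filled circles for the RSEM-layout quantification and open squares for the kallisto-layout quantification, coloured by replicate. Malat1 stands far above the others at 4343 and 3670 TPM, and Dlx6os1 is lowest at 6.21 and 5.05 TPM.

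Malat1 (ENSMUSG00000092341.3, chr19:5795690-5802672, minus strand) was the most abundant member. It stood at 4343 TPM in replicate 1 and 3670 TPM in replicate 2 (4007 ± 476, n = 2), from 337921 and 277627 expected counts. That is 1.01% and 0.848% of all counts on annotated genes, and 88.8% and 87.7% of the members' counts. Malat1 was second among the long noncoding genes by mean TPM, below Gm26917 and above Rmrp, the RNA of the RNase MRP enzyme, and was in place 3 in the kallisto layout. Replicate 2 was lower, with a ratio of 0.887 to replicate 1 after TMM scaling (trimmed mean of M-values, edgeR). The 95% interval for counting error was 0.883 to 0.892. Such intervals, given for each member below, leave out the spread between animals.

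How Malat1 was divided among its transcripts depended on the quantification. In the RSEM layout, Malat1-201, the unspliced full-length form, took 45.6% of the gene's TPM in replicate 1 and 44.5% in replicate 2. The rest went to short spliced forms of 485 to 656 bases, whose exons all lie within Malat1-201: Malat1-204 had 22.8% and 22.7%, Malat1-202 had 19.8% and 20.1%, and Malat1-203 had 11.8% and 12.8%. In the kallisto layout Malat1-201 took 99.8% and 99.9%. By expected counts, with no division by length, the full-length form held 92.3% and 92.0% in the RSEM layout. The gene's level differed accordingly, at 3117 and 2586 TPM in the kallisto layout, 0.718 and 0.705 of the RSEM-layout level. Malat1 was the only member lower in the kallisto layout. The other 9 were higher, and the median gene with a mean TPM of at least 1 was 1.54-fold higher there.

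Neat1 (ENSMUSG00000092274.3, chr19:5824708-5845478, minus strand), the neighbour of Malat1, was low. It stood at 13.5 TPM in replicate 1 and 8.84 TPM in replicate 2 (11.2 ± 3.30, n = 2), next to Snhg1 and Gm6145 among detected long noncoding genes. Its counts were nearly the same, 1656 and 1575, with a scaled ratio of 1.03 and a counting interval of 0.958 to 1.10. The scaled ratio lay on the other side of 1 with total-count or spike-in scaling. TPM and counts parted because the gene's effective length, the length averaged over its transcripts by their abundance, was 5363 bases in replicate 1 and 7835 bases in replicate 2.

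The short and long Neat1 forms stood in different proportions in the libraries. Short Neat1-202 was at 10.5 TPM and 697 counts in replicate 1 and at 5.42 TPM and 358 counts in replicate 2. Long Neat1-201, the form that builds paraspeckles, was at 1.99 TPM and 940 counts in replicate 1 and at 2.56 TPM and 1205 counts in replicate 2. The short form was thus lower and the long form higher in replicate 2. Scaled ratios of replicate 2 to replicate 1 were 0.554 (counting interval 0.487 to 0.631) for the short form and 1.38 (1.27 to 1.51) for the long form. The directions held under TMM, total-count, DESeq2 and spike-in scaling.

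The ratio of short to long counts needs no scaling between libraries. It was 0.741 in replicate 1 and 0.297 in replicate 2 in the RSEM layout, with counting intervals of 0.671 to 0.819 and 0.263 to 0.335. In the kallisto layout it was 0.594 and 0.215. In both quantifications the short form was therefore the more abundant molecule per length, 5.28 and 2.12 times the long form's TPM in the RSEM layout, while the long form held most counts. The short form's exons lie within the first 3172 bases of the long form, so reads from that stretch are divided between them by the estimate.

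The shift is also seen in the distance between transcript shares, the summed difference in shares divided by 2. For Neat1 it was 20.9 percentage points between the libraries in the RSEM layout and 18.0 in the kallisto layout. Among 52 long noncoding genes with several transcripts and at least 1000 summed counts, a bound chosen after the values were seen, the medians were 6.81 and 5.89. In that set 3 genes lay farther apart than Neat1 in the RSEM layout and 2 in the kallisto layout. The difference rests on a single pair of libraries and has no replicate check.

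**Figure D2:**
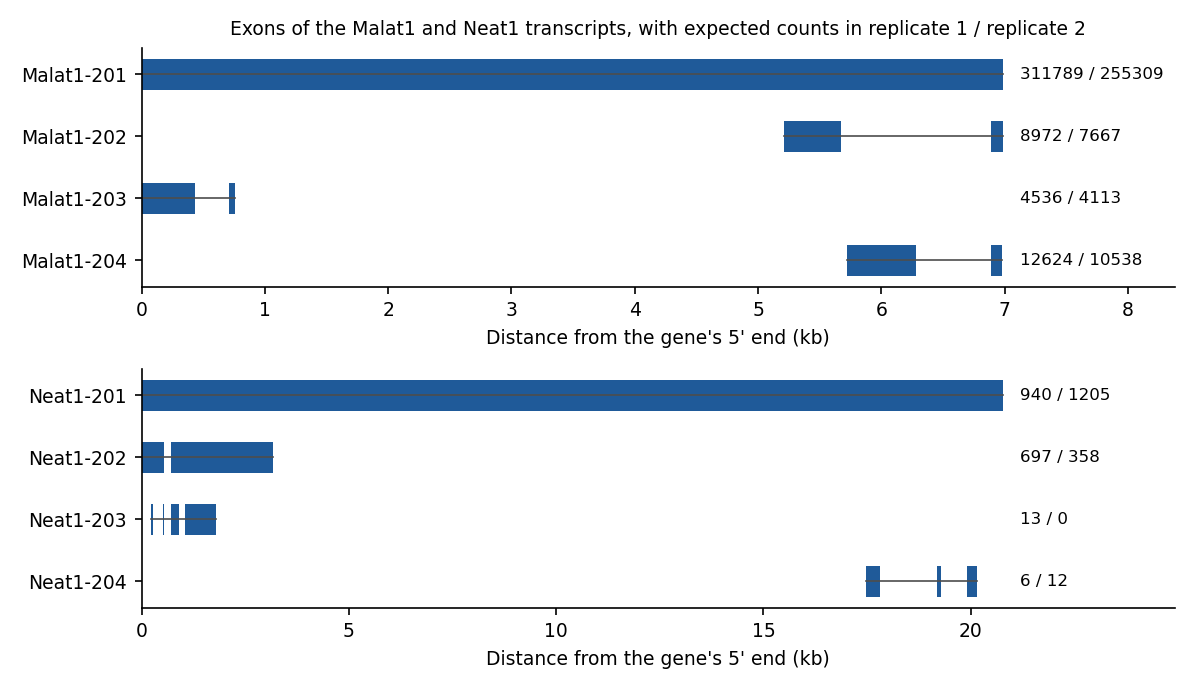
Exons of the annotated Malat1 and Neat1 transcripts as boxes, against distance from the gene's 5′ end in kb, with the expected counts of replicates 1 and 2 at the right. The short Neat1-202 lies within the first part of Neat1-201 and has 697 and 358 counts, against 940 and 1205 for the long form.

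The genes for proteins listed as working with these nuclear RNAs were all detected, as RNA and not as protein. Of 14 genes for paraspeckle proteins, 14 were detected. Between the libraries 0 of 14 were at least 1.5-fold apart (4.18% of all 14715 tested genes were). Their median was 47.3 ± 3.65 TPM. Hnrnpk (300.1 TPM), an RNA-binding protein of many transcripts, was highest, and Rbm14 (22.4 TPM) and Hnrnph3 (14.2 TPM) lowest. Sfpq and Nono, the pair that coats long Neat1, belong to the same list. All 15 genes for nuclear speckle proteins were detected, with a median of 66.7 ± 2.55 TPM and 0 past 1.5-fold. The splicing scaffold Srrm2 (202 TPM) and the splicing factor Srsf5 (153 TPM) led them, and Luc7l3 (47.1 TPM) and Pnn (25.8 TPM) were lowest.

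RNase P and RNase Z, which shape the Malat1 end, were represented by 12 genes, all detected. Rpph1, the RNA subunit of RNase P, was at 8814 ± 255 TPM in the RSEM layout but at 0.782 and 1.59 TPM in the kallisto layout, so its level depended wholly on the quantification. Of the protein subunits Pop5 had 32.4 TPM, Rpp38 had 3.58 TPM and Rpp40 had 2.25 TPM. Rpp40 was the 1 gene of the list past 1.5-fold, with 87 counts in replicate 1 and 44 in replicate 2. Past that bound in either direction were 4.18% of all tested genes.

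Miat (ENSMUSG00000097767.8, chr5:112213228-112229395, minus strand) was at 101 TPM in replicate 1 and 85.9 TPM in replicate 2 (93.2 ± 10.4, n = 2), from 14667 and 12747 counts. Replicate 2 was slightly lower, with a scaled ratio of 0.938 (counting interval 0.916 to 0.961). The share of its leading transcript was close in all 4 estimates. Miat-201, which holds the TACTAAC copies shown above, took 69.9% and 69.5% in the RSEM layout and 72.2% and 71.6% in the kallisto layout. Miat-202, a form of 747 bases, was next with 13.8% and 17.9% in the RSEM layout, while Miat-206 had 9.34% and 4.54% in the RSEM layout and 0 in the kallisto layout. Miat-205, the longest form with 9163 bases, passed 5% in the kallisto layout with 6.43% and 5.52%.

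Gm26953 (chr5:112215461-112233720), a long noncoding gene on the opposite strand, overlaps most of Miat but not its 3′ end. It had 3 and 6 counts, although 26.9% of Miat's 31-base words are found in transcripts of other genes, with 2014 of the 2526 shared words in Gm26953. Of 5 genes that overlap the Miat span, 4 are short RNAs on the same strand. Gm27627 had 31.8 and 57.2 counts there, and Gm27998 had 21 counts in replicate 1 and 0 in replicate 2. The kallisto layout gave 0 for both. Gm27627 (chr5:112217318-112217467) overlaps the upstream TACTAAC cluster printed above, and reads there cannot be told apart from those of Miat. The nearest protein-coding gene, Cryba4, lies 17.1 kb away and was listed at 0.47 and 0.60 TPM. On the other side Gm26897, 479 kb away, had 0 counts in both libraries.

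Transcripts of the genes listed as RNA-binding partners of Miat and Rmst were abundant. All 6 were detected, at a median of 87.8 ± 4.48 TPM, and 0 of 6 were past 1.5-fold (4.18% of all tested genes were). Hnrnpa2b1 (220 TPM) and Qk (217 TPM), a splicing regulator of glia, were highest. Sf1 (76.8 TPM), the reader of TACTAAC, and Sox2 (21.8 TPM) were lowest.

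Sox2ot (ENSMUSG00000105265.4, chr3:34104270-34682619, plus strand) is the longest locus, 578 kb, with the single-exon gene Sox2 inside it on the same strand. Sox2 is the transcription factor of neural stem cells and astroglia. Sox2ot was at 15.3 TPM in replicate 1 and 12.1 TPM in replicate 2 (13.7 ± 2.26, n = 2), from 672 and 458 counts. The scaled ratio was 0.735 (counting interval 0.652 to 0.830). Sox2 was at 20.9 and 22.8 TPM, with a ratio in the other direction of 1.17 (1.07 to 1.28). The host RNA and the gene it surrounds thus lay on opposite sides of 1.

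Sox2ot was the 1 member over 2-fold apart between the quantifications in both libraries. The kallisto layout gave 36.4 and 27.1 TPM, 2.37 and 2.23 times the RSEM-layout level. The same was true, with the kallisto layout higher, of 8.58% of all genes at a mean TPM of at least 1 and of 17.9% of such long noncoding genes. As shares of each library's total counts the estimates were 1.17 and 1.15 times apart. Of its 18 transcripts, 9 passed 5% of the gene in the RSEM layout. Sox2ot-206 led there with 21.1% and 23.9%, but had 0.0371% and 23.7% in the kallisto layout. Sox2ot-217 led in the kallisto layout with 26.3% and 34.8%. Sox2ot-210 had 21.2% in replicate 1 and 0 in replicate 2 in that layout.

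Of 14 genes within the Sox2ot span, 6 are on the opposite strand, and those 6 had at most 40 counts in a library. The most counted of them was Gm20515, with 40 and 28. Gm42692, on the same strand, had 87 and 39 counts. The nearest protein-coding genes outside the span were Dnajc19, 22.9 kb away at 23.2 and 25.7 TPM, and Atp11b, 1071 kb away at 43.3 and 39.0 TPM.

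Rmst (ENSMUSG00000112117.1, chr10:92071037-92165170, minus strand), an RNA that binds Sox2 protein in neurogenesis, was at 10.6 TPM in replicate 1 and 9.47 TPM in replicate 2 (10.01 ± 0.764, n = 2). It had the fewest counts of the members, 236 and 195. Its scaled ratio was 0.891, and the counting interval of 0.734 to 1.08 covers 1. Its 14 transcripts were not resolved at this depth: the leading form was Rmst-201 in the RSEM layout (22.7% and 21.1%) and Rmst-205 on average in the kallisto layout (22.6% and 26.3%), where Rmst-214 took 9.72% and 26.9%. Rmst-210, with 10 exons and 2891 bases, had 30.3% and 38.4% of the expected counts. The opposite-strand gene Gm26700, which shares 1890 of Rmst's 31-base words, had 0 counts in both libraries in the RSEM layout and 2 and 4 in the kallisto layout. The next protein-coding genes were distant, Nedd1 at 520 kb (2.05 and 1.44 TPM) and Tmpo at 890 kb (16.7 and 14.0 TPM).

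Pantr1 (ENSMUSG00000060424.14, chr1:42590782-42694842, minus strand) begins 925 bases from Pou3f3, a transcription factor of upper cortical layers and hippocampus, which runs the other way. Pantr1 was at 63.3 TPM in replicate 1 and 76.2 TPM in replicate 2 (69.8 ± 9.14, n = 2), from 650 and 790 counts. Replicate 2 was higher, with a scaled ratio of 1.31 (counting interval 1.18 to 1.46). Pou3f3 was at 23.6 and 27.0 TPM, and its ratio was 1.23 (1.18 to 1.28). Both genes of the pair were therefore higher in replicate 2. On the other side, Tmem182 lies 1734 kb away and was listed at 0.17 and 0.22 TPM.

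The transcript make-up of Pantr1 differed most between the quantifications, by 79.8 percentage points in replicate 1 and 70.1 in replicate 2. For the 438 long noncoding genes with several transcripts and a mean TPM of at least 1 the medians were 17.9 and 19.9. In the RSEM layout Pantr1-212 had 41.9% and 22.5%, Pantr1-202 had 21% and 33.5%, Pantr1-206 had 21.4% and 23.2%, and Pantr1-209 had 10.7% and 16.3%. The kallisto layout gave 60.04% and 58.5% to Pantr1-209 and 30.1% and 28.0% to Pantr1-207, which had 0 in the RSEM layout. Gene counts were less affected, with kallisto-layout shares of all counts 0.886 and 0.820 of those in the RSEM layout.

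Dlx6os1 (ENSMUSG00000090063.6, chr6:6820189-6871592, minus strand), also called Evf, runs through the Dlx6 gene on the opposite strand and belongs to the locus that marks developing GABAergic interneurons. It was the lowest member, at 6.21 TPM in replicate 1 and 5.05 TPM in replicate 2 (5.63 ± 0.820, n = 2), from 547 and 416 counts. Replicate 2 was lower, with a scaled ratio of 0.821 (counting interval 0.721 to 0.935). Dlx6 was at 4.37 and 3.47 TPM, with a ratio of 0.924 (0.672 to 1.27), and Dlx5, 6.21 kb away, at 2.64 and 1.66 TPM, with a ratio of 0.677 (0.464 to 0.973). Dlx6 had only 90 and 77 counts and Dlx5 80 and 50. The sources used here do not state whether counting used strand, so reads of Dlx6 and Dlx6os1 where they overlap are uncertain. On the far side Sem1, 242 kb away, was at 25.8 and 21.1 TPM.

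Of 14 markers of GABAergic interneurons, all detected, 12 were lower in replicate 2, Pvalb and Vip were higher, and 0 were past 1.5-fold. Of all tested genes, 47.5% were lower in replicate 2 and 4.18% were past 1.5-fold in either direction. With total-count scaling 13 of 14 markers and 67.2% of all genes were lower in replicate 2. The list includes Dlx6 and Dlx5 of the Dlx6os1 locus, and its summed level was 465 TPM in replicate 1 and 386 TPM in replicate 2. Such sums are not scaled between the libraries. The median of detected protein-coding genes was also lower in replicate 2, at 15.5 and 14.2 TPM. Sst (171 and 127 TPM) and Gad1 (116 and 108 TPM) were highest, and Dlx5 and Sp9 (2.07 and 1.47 TPM) lowest. None of the 14 was at 0. The part of interneuron content in the Dlx6os1 difference was not tested. Dlx6os1-202 led in the RSEM layout with 57.2% and 60.1%, before Dlx6os1-201 (29.0% and 20.6%) and Dlx6os1-203 (13.8% and 19.3%). In the kallisto layout the short Dlx6os1-203, of 524 bases, had 38.6% and 29.8% from 16 and 8 counts.

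Oip5os1 (ENSMUSG00000085438.1, chr2:119594297-119607502, plus strand), known as Cyrano and as a trigger of miR-7 decay, was second to Malat1 among the members in the RSEM layout. In the kallisto layout Mir124a-1hg was above it in replicate 1 (174 against 158 TPM) and below it in replicate 2 (123 against 156 TPM). In the RSEM layout Oip5os1 was at 118 TPM in replicate 1 and 117 TPM in replicate 2 (117 ± 1.202, n = 2), from 18314 and 18376 counts. This was the closest agreement in TPM of the 10. Its scaled ratio of counts was 1.08 (counting interval 1.06 to 1.11), on the other side of 1 from its TPM. The 8300-base transcript 1700020I14Rik-202, which holds the miR-7 site shown above, took 79.3% and 81.7% in the RSEM layout and 83.8% and 86.5% in the kallisto layout. The shorter 1700020I14Rik-201, of 1381 bases, took the rest. Oip5, the protein-coding gene after which it is named and which serves at the centromere of dividing cells, lies 2.01 kb away on the other strand. It was listed at 0.64 and 0.82 TPM with 20 and 24 counts, and Chp1, on the other side, at 65.5 and 61.2 TPM.

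Mir124a-1hg (ENSMUSG00000097545.7, chr14:64587331-64593961, plus strand) is the host of Mir124a-1, one source of miR-124, the most typical microRNA of neurons. It was at 109 TPM in replicate 1 and 72.8 TPM in replicate 2 (91.0 ± 25.7, n = 2), from 5230 and 3459 counts. The scaled ratio of 0.714 (counting interval 0.684 to 0.746) was the lowest of the members. Its transcript shares hardly differed between the libraries, by 1.39 percentage points in the RSEM layout and 3.37 in the kallisto layout. Mir124a-1hg-201, of 4103 bases, had 44.4% and 44.2%, and Mir124a-1hg-202, of 757 bases, had 36.4% and 35.2%. In the kallisto layout these were 42.4% and 40.6% for the first and 41.0% and 44.0% for the second, so the leading form differed between replicates. The remaining 2 transcripts had 8.90% to 10.4% each in the RSEM layout. All 4 forms were lower in replicate 2 in the RSEM layout, with log2 ratios from -0.53 to -0.27. The nearest protein-coding genes were Kif13b, 53.3 kb away at 9.19 and 6.41 TPM with a ratio of 0.816, and Msra, 131 kb away at 48.6 and 45.7 TPM.

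Mir9-3hg (ENSMUSG00000097023.8, chr7:79500026-79534403, plus strand) is the host of Mir9-3, a source of miR-9, which acts in neural progenitors and young neurons. It was at 29.5 TPM in replicate 1 and 37.5 TPM in replicate 2 (33.5 ± 5.66, n = 2), from 775 and 996 counts. The scaled ratio of 1.39 (counting interval 1.26 to 1.53) was the highest of the members, so Mir9-3hg and Mir124a-1hg lay on opposite sides of 1. Mir124-2hg, another miR-124 host that is not a member, had 385 and 418 counts. Its ratio of 1.17 lay on the other side of 1 from that of Mir124a-1hg. Mir9-3hg-201, of 1847 bases, led in all 4 estimates, with 37.0% and 32.0% in the RSEM layout and 36.2% and 34.4% in the kallisto layout. Mir9-3hg-205, of 343 bases, had 21.4% and 27.5% in the RSEM layout and 0 in the kallisto layout. The unclassified genes inside the locus did not share the direction: A330074H02Rik had 107 and 69 counts, 2900037B21Rik had 27 and 18, and Gm37608 had 131 and 118. Polg, 33.7 kb away, was at 39.4 and 34.7 TPM, and Rhcg, 59.0 kb away, was listed at 0.97 and 0.51 TPM.

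Progenitor markers, set beside Mir9-3hg and Sox2ot, lay in both directions. Of 9, all detected, 5 were lower in replicate 2, with 0 past 1.5-fold, and 47.5% of all tested genes were lower. With total-count scaling 6 of 9 markers and 67.2% of all tested genes were lower. Fabp7 (89.2 and 72.9 TPM) and Vim (52.5 and 38.9 TPM) were highest, and Nes was at 4.78 and 3.59 TPM. All 13 genes that cut and use microRNAs were detected, with a median of 19.4 ± 2.26 TPM, and 0 were past 1.5-fold (4.18% of all tested genes were). Tnrc6b (47.8 TPM) and Ago2 (35.3 TPM), both of the silencing complex, led, and Prkra (7.01 TPM) and Ago4 (2.62 TPM) were lowest.

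**Figure D3:**
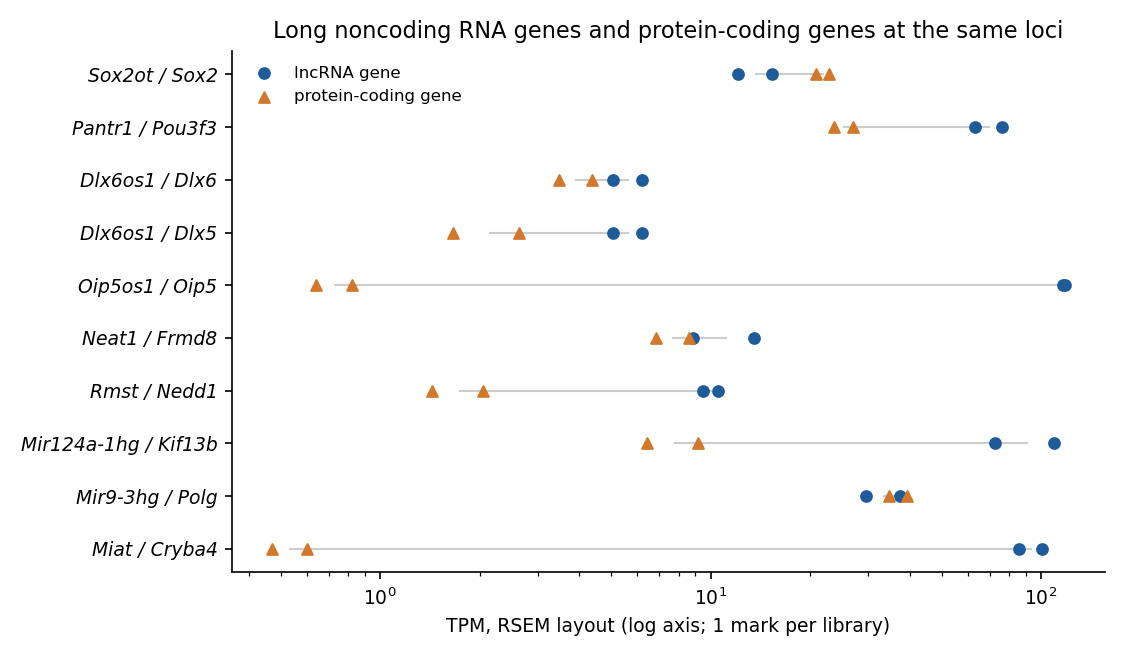
TPM of 9 of the long noncoding genes (circles) and of a protein-coding gene at each locus (triangles; Dlx6os1 with both Dlx6 and Dlx5), with 1 mark per library on a log axis. Malat1 is not shown. Oip5os1 and Miat lie over 100-fold above Oip5 and Cryba4, while Sox2ot lies below Sox2.

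Of 9 protein-coding genes listed for these loci, 7 were detected and 0 of the 7 were past 1.5-fold (4.18% of all tested genes were). In replicate 2, 4 of the 7 and 47.5% of all tested genes were lower. With total-count scaling these were 5 of the 7 and 67.2%. Nusap1 (0.68 TPM) and Oip5 (0.73 TPM) were lowest, and Pou3f3 was at 25.3 TPM.

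Across the 10 members, 0 were at least 1.5-fold apart between the libraries, where 4.18% of all 14715 tested genes and 8.06% of 620 tested long noncoding genes were. At a lower bound of 1.2-fold, 5 of 10 were: Mir124a-1hg, Sox2ot and Dlx6os1 were lower in replicate 2 and Pantr1 and Mir9-3hg higher. Past that bound were 21.1% of all tested genes, and the share of tested long noncoding genes was not computed. The median absolute log2 ratio was 0.23 for the members, 0.21 for the tested long noncoding genes and 0.12 for all tested genes. For the 134 tested long noncoding genes with at least 500 summed counts, a depth that all members but Rmst reached, it was 0.14. Every member lay inside the central 95% of all tested genes, from -0.61 to 0.49. Single transcripts ranged more widely: of 35 member transcripts with at least 50 summed counts, 5 lay below and 7 above that range of gene ratios. The short Neat1 form, at -0.85, was among them, as were Pantr1-202 at 1.04, Mir9-3hg-202 at 0.92, Miat-205 at 0.78 and Sox2ot-210 at -2.49. The share of all transcripts outside that range was not computed. The counts of member transcripts outside it therefore do not set the members apart from other genes.

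**Figure D4:**
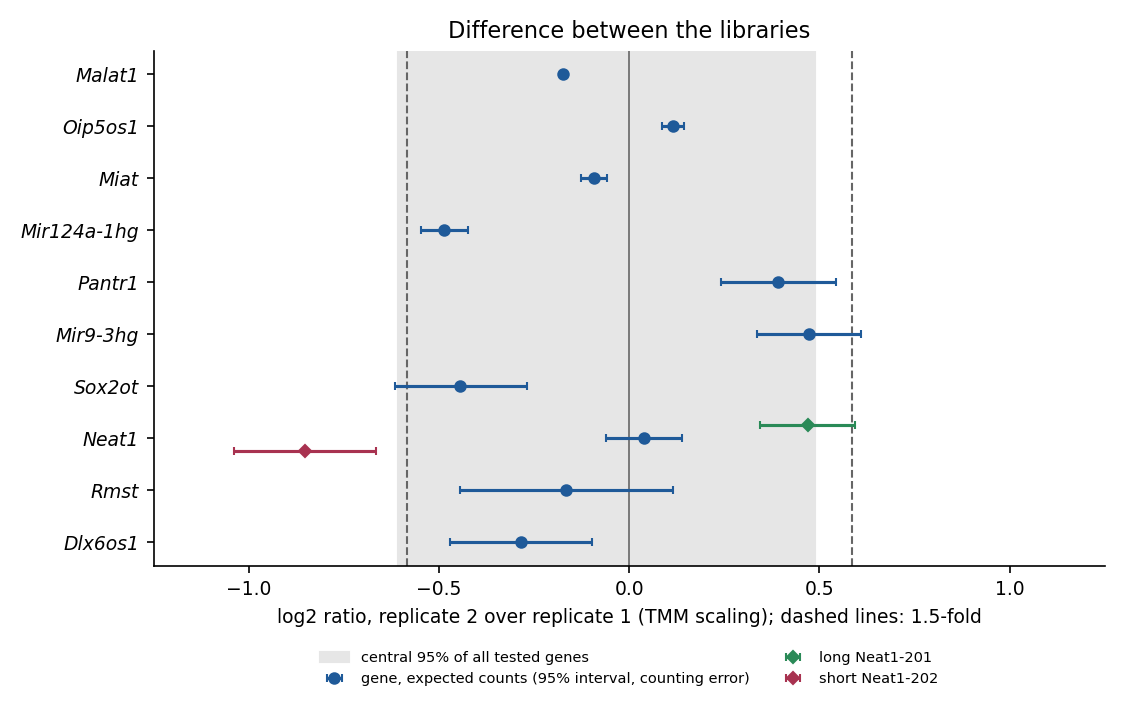
log2 ratio of replicate 2 to replicate 1 for each gene, with 95% intervals for counting error. The grey band is the central 95% of all tested genes and dashed lines mark 1.5-fold. All genes lie within the band, and the short and long Neat1 transcripts lie apart at -0.85 and 0.47.

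In the order of levels, several neighbours did not differ beyond the spread of their libraries. The TPM values of Miat and Mir124a-1hg overlapped, as did those of Mir124a-1hg and Pantr1, of Sox2ot and Neat1, and of Neat1 and Rmst. The steps from Malat1 to Oip5os1, Oip5os1 to Miat, Pantr1 to Mir9-3hg, Mir9-3hg to Sox2ot and Rmst to Dlx6os1 did not overlap. Malat1 was 36.7 and 31.5 times Oip5os1 in the RSEM layout and 19.7 and 16.6 times in the kallisto layout. In the kallisto layout 2 of these steps were reversed in both libraries: Miat was at 0.776 and 0.991 of Mir124a-1hg, and Neat1 at 0.962 and 0.710 of Rmst.

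Other genes stood at the same levels. Bc1 (201 TPM, listed at 0 in the kallisto layout), a small RNA of dendrites, came next above Oip5os1 and Gm3764 (107 TPM) next below, the latter also just above Miat. Gas5 (86.1 TPM) was next below Mir124a-1hg. Xist (83.8 TPM) was next above Pantr1 and Gm48623 (66.9 TPM) next below. 3110039I08Rik (37.2 TPM) and Gm27000 (33.3 TPM) enclosed Mir9-3hg, B930095G15Rik (14.2 TPM) and 9630013A20Rik (13.5 TPM) Sox2ot, Tctn2 (10.2 TPM) and AA465934 (9.70 TPM) Rmst, and Gm28052 (5.71 TPM) and Gt(ROSA)26Sor (5.59 TPM) Dlx6os1. A likeness of level says nothing of shared control.

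Among 24 other brain long noncoding RNAs found by name, of 25 listed, 22 were detected. Their median was 27.0 ± 0.0778 TPM, from Meg3 (1161 TPM) and Snhg14 (559 TPM), both from imprinted loci, down to Six3os1 (0.51 and 0.21 TPM) and Otx2os1 (0.43 TPM in replicate 1, listed at 0 in replicate 2). Of the 22 tested, 1 was past 1.5-fold, where 8.06% of 620 tested long noncoding genes were. That gene, Zfhx2os, chosen after its values were seen, had 284 counts in replicate 1 and 145 in replicate 2, with a scaled ratio of 0.551.

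Gene structure varied widely among the members. Their median span was 27.6 kb and their median number of transcripts 5, against 7.70 kb and 2 for the 669 detected long noncoding genes. The median length of the leading transcript was 3554 bases against 1319, and the median G and C content of that transcript was 46.4% against 48.6%. The members are known RNAs with a median of 51.7 TPM, and the detected long noncoding genes had 2.67 TPM. The part of level and of depth of annotation in these differences was not tested. Within the members, spans ran from 6.63 kb for Mir124a-1hg to 578 kb for Sox2ot.

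The distance between the quantifications' transcript shares varied widely among the members. In replicate 1 it was 79.8 percentage points for Pantr1 (12 transcripts), 54.2 for Malat1 (4), 40.8 for Rmst (14) and 38.8 for Sox2ot (18). It was 28.8 for Mir9-3hg, 28.7 for Dlx6os1, 14.1 for Miat, 8.42 for Neat1, 7.67 for Mir124a-1hg and 4.46 for Oip5os1. For Neat1 the distance between libraries (20.9 in the RSEM layout and 18.0 in the kallisto layout) was larger than that between quantifications in both libraries (8.42 and 14.9). The same held for Sox2ot in the kallisto layout, at 45.3 against 38.8 and 29.3, but not in the RSEM layout, at 19.97.

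**Figure D5:**
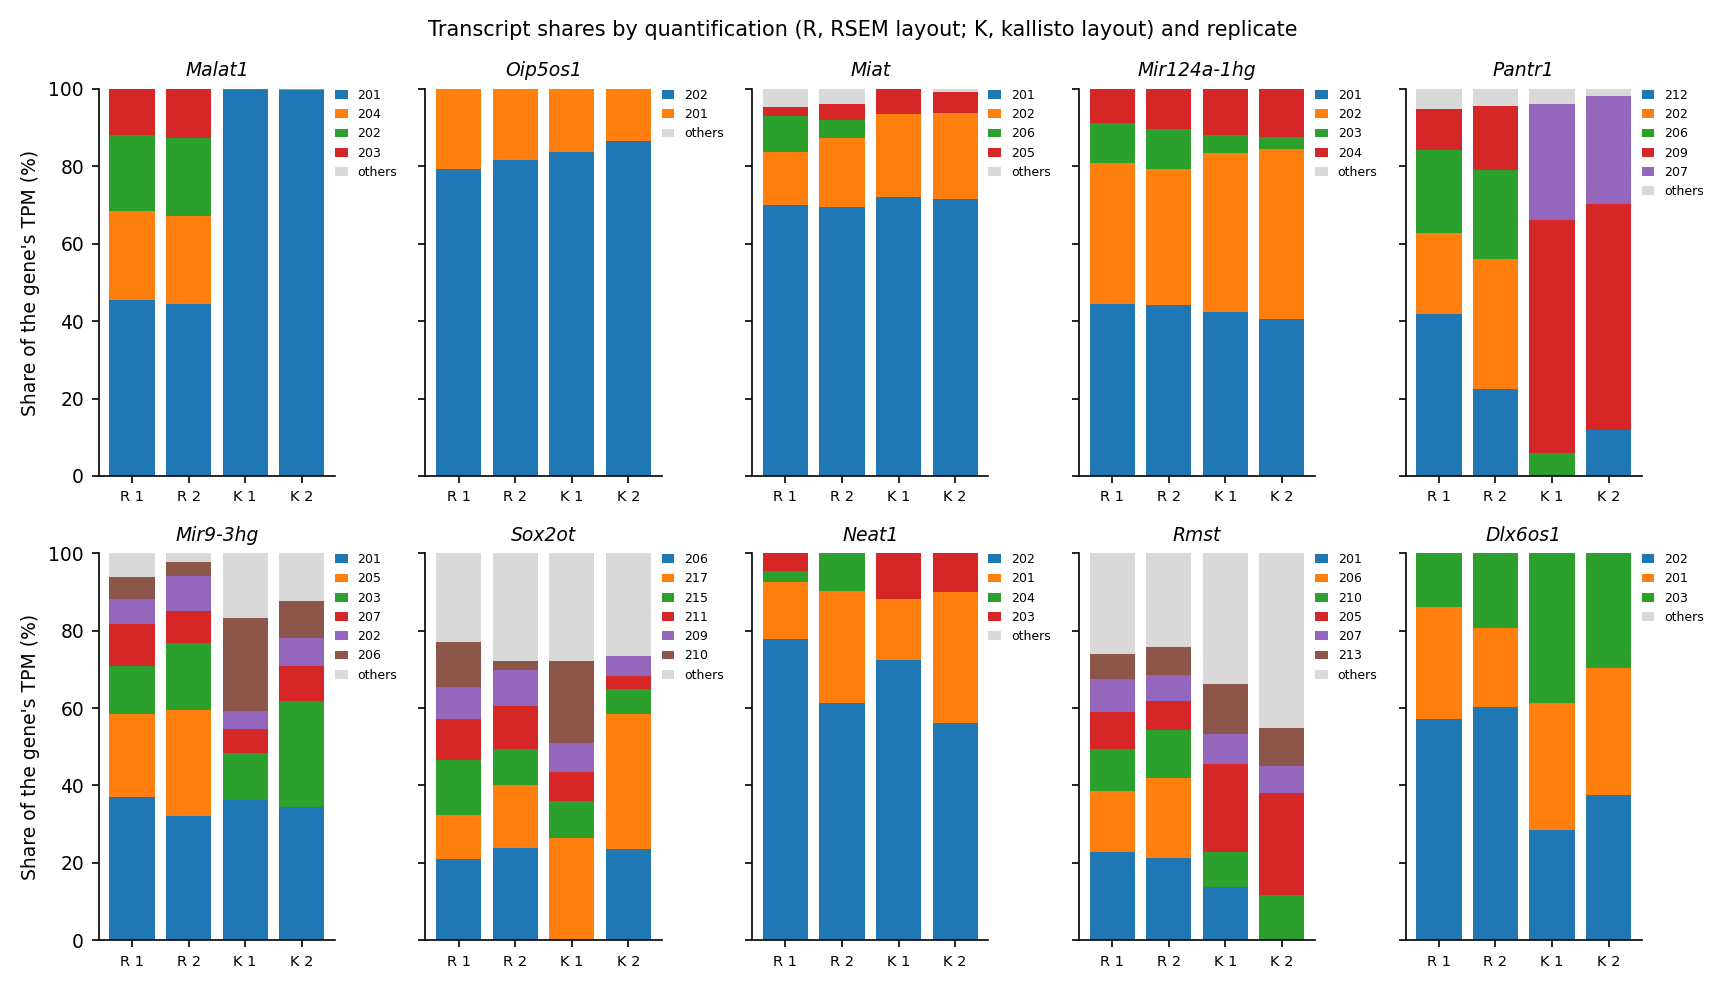
Share of each gene's TPM, in percent, taken by its transcripts (up to 6 that passed 5% are coloured) in the RSEM (R) and kallisto (K) layouts for replicates 1 and 2. Malat1-201 fills 99.8% and 99.9% of the kallisto bars but under 46% of the RSEM bars, while the Neat1 bars differ between replicates in both.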

How the data were processed

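Each library was quantified by the authors against mm10 and GENCODE M21, per the labels' assembly field and the submitters' deposited annotation notes. The deposited RSEM-layout tables hold expected counts, TPM and each transcript's percent of its gene's TPM. They also hold deposited TPM interval bounds, treated as a score and not printed. The deposited kallisto-layout tables hold estimated counts and TPM per transcript, summed here per gene. No source used here states the tool versions, or whether counting used strand.

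Members were matched by symbol, and Oip5os1 through the RefSeq synonym (GRCm38.p6). Members and lists were chosen with earlier results of these data known. Named were all 10 members, transcripts with at least 5% of a gene, overlapping and nearest protein-coding genes, the detected long noncoding genes next in level, and the highest 2 and lowest 2 genes of each list; others were chosen after their values were seen. A few genes that this rule names are not reported here. The lists of oligodendrocyte lineage, microglia, endothelium, thalamus and striatum markers are summarised in the closing section.

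Counts rounded to whole numbers were scaled with edgeR 4.0.16 (TMM, R 4.3.3). Ratios used a prior count of 0.5. Genes were tested from 50 summed counts and a mean of 1 TPM upward. Their 95% intervals are exact binomial and cover counting error only, as reads are not independent molecules. The labels call the libraries biological replicates with different animal numbers but 1 donor identifier, so their independence is uncertain. Quantifications were compared on log2(TPM + 0.1). The ratio was tested on simulated data. Sequences came from GENCODE transcripts and RefSeq. Depth was 33465393 and 32879872 counts. Alternatives were DESeq2, total-count, spike-in and kallisto-layout scaling, other thresholds and pseudocounts, and each library alone.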

Additional observations from a re-analysis of the deposited data

How the results depend on the processing

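The number of members detected was 10 in the main setting and in all alternatives, at a TPM of 0.5 or 5, in the kallisto layout and in each library alone. Their median level of 51.7 TPM became 82.6 TPM in the kallisto layout and 118 TPM when TPM was rescaled over nuclear protein-coding genes, and ranged from 46.4 to 55.2 TPM with 1 library left out. The count of members past 1.5-fold was 0 with total-count, DESeq2, spike-in and kallisto-layout scaling, at 2-fold and without a filter, and 5 at 1.2-fold. Members over 2-fold apart between quantifications numbered 1, against 5 at 1.5-fold and 0 by share of all counts. Rescaling TPM moved all 10 levels by more than 1 SD, as did the kallisto layout. The ratio for Neat1 lay on the other side of 1 with total-count, spike-in and TPM values, and that for Oip5os1 with TPM values. The share of the leading transcript moved by more than 1 SD for 8 of 10 members in the kallisto layout and for 9 by expected counts. No paired analysis was possible because there is 1 group. Depth limits Rmst, with 236 and 195 counts, and the transcripts of Sox2ot and Pantr1.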

Other observations

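Markers of other cell types of the tissue were present as well. All 8 oligodendrocyte lineage markers were detected, with sums of 1704 TPM in replicate 1 and 1676 TPM in replicate 2, with the myelin gene Mbp at 897 TPM and Sox10 (20.97 TPM) and Olig2 (19.04 TPM) lowest. All 5 microglia markers were detected, with sums of 92.5 and 104 TPM, and all 4 endothelium markers, with sums of 58.5 and 59.9 TPM. After TMM scaling 3 microglia markers were higher in replicate 2 and 2 lower, with a median log2 ratio of 0.23. Of the markers listed for neighbouring regions, 3 of 4 for thalamus were detected (sums of 44.2 and 38.1 TPM) and 5 of 5 for striatum (31.2 and 26.5 TPM). The sums are not scaled between the libraries, and after TMM scaling 3 striatum markers were higher in replicate 2 and 2 lower. The thalamus marker not detected was Gbx2, at 0.06 TPM in replicate 1 and 0.02 TPM in replicate 2. Whether tissue of those regions was in the samples was not tested. In these 5 lists 0 tested genes were past 1.5-fold (4.18% of all tested genes were).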
